A study of Mus musculus with 15 samples.

Results

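The comparison described here sets the 3 L-gel@GSNP libraries against the 3 D-gel@NP libraries, 6 of the 15 RNA sequencing libraries of the series, and covers every gene of the count table. The 6 libraries were taken by the names of their columns in that table. The pair of groups was put forward because both stood apart from non-SP in earlier results of these data, so their place relative to non-SP is a description. All came from GL261, a mouse glioblastoma cell line labelled wild type, and in both groups the cells were the fraction labelled Hoechst-CD133+. These cells were mixed on ice for 20 min with a freeze-dried chiral hydrogel and then kept in the gel for 6 days in medium with a cytokine cocktail, with blank medium added on days 2 and 4. One group had the gel with the prefix L and the load GSNP, the other the gel with the prefix D and the load NP. The labels give GSNP and NP only as code names. Gel and load both differ between the groups, so what belongs to the handedness of the gel and what belongs to the load cannot be told apart. The remaining 9 libraries were untreated non-SP cells (cells outside the dye-excluding side population), Hoechst-CD133+ cells with PBS and the cytokines, and Hoechst-CD133+ cells in D-gel@GSNP with the cytokines, 3 of each. The title of the series places the gels in work on tumour stemness after glioblastoma surgery. The labels do not say whether the libraries of a group came from separate cultures, so the p-values measure the spread between these libraries, which may be technical.

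Several of the programmes described below follow the supply of oxygen, amino acids and lipids. When oxygen is short, the prolyl hydroxylases of the Egln family stop marking the transcription factor HIF1A for destruction, and HIF1A then raises genes of glucose uptake, glycolysis, vessel growth and mitophagy. When amino acids are short or proteins misfold in the endoplasmic reticulum, the integrated stress response raises the translation of ATF4, which drives genes of amino acid synthesis and import. Sterol synthesis is switched on by SREBP2 when membranes hold little cholesterol, and lysosomal genes follow the TFEB and TFE3 factors.

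Total counts were 34956917, 43662948 and 98102794 in L-gel@GSNP 1, 2 and 3 and 16626413, 38706152 and 40015227 in D-gel@NP 1, 2 and 3, so the deepest and the shallowest library of the series stood on opposite sides. All libraries carry the same batch label. On log2 CPM (reads of a gene relative to the TMM-adjusted depth of its library) over all tested genes, D-gel@NP 1 lay 91.45 to 93.36 from the other libraries of its group, while the distance between those was 68.53 and the distances between the groups ran from 73.36 to 100.7. Over all tested genes D-gel@NP 1 was thus as far from its own group as many pairs were across the groups. Over the 9174 genes with a mean of at least 10 CPM, where depth matters less, it lay 15.74 to 17.9 from its own group and 24.12 to 28.66 from L-gel@GSNP. Mitochondrially encoded genes took 4.28% to 4.63% of the counts in L-gel@GSNP and 4.47% to 4.84% in D-gel@NP. The gene for CD133, Prom1, had 35 counts summed across the L-gel@GSNP libraries and 10 across those of D-gel@NP, raw counts that are not scaled for the greater depth of L-gel@GSNP, and was too low to be tested. Olig2, a glial lineage factor, had no count in either group, Gfap stayed at or below 0.304 CPM, and Sox2 was not analysed here.

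Of 17497 tested genes, 1457 were higher and 1948 lower in L-gel@GSNP than in D-gel@NP at an adjusted p under 0.05 (edgeR's quasi-likelihood test with Benjamini-Hochberg adjustment). These 3405 called genes are 19.5% of those tested, with 8.33% higher and 11.1% lower, and 5356 genes had an unadjusted p under 0.05. Among the better measured genes with at least 10 CPM, 2661 of 9174 were called, or 29%. Most differences were small: the median size among called genes was 0.35 on the log2 scale, and 211 genes rose and 107 fell by at least 2-fold. Without L-gel@GSNP 3, the deepest library, 128 genes rose by at least 2-fold. The median log2 difference over all tested genes was -0.006, with quartiles of -0.18 and 0.20. In 5584 genes, 31.9% of those tested, the 3 libraries of one group all lay on the same side of the 3 of the other.

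**Figure D1:**
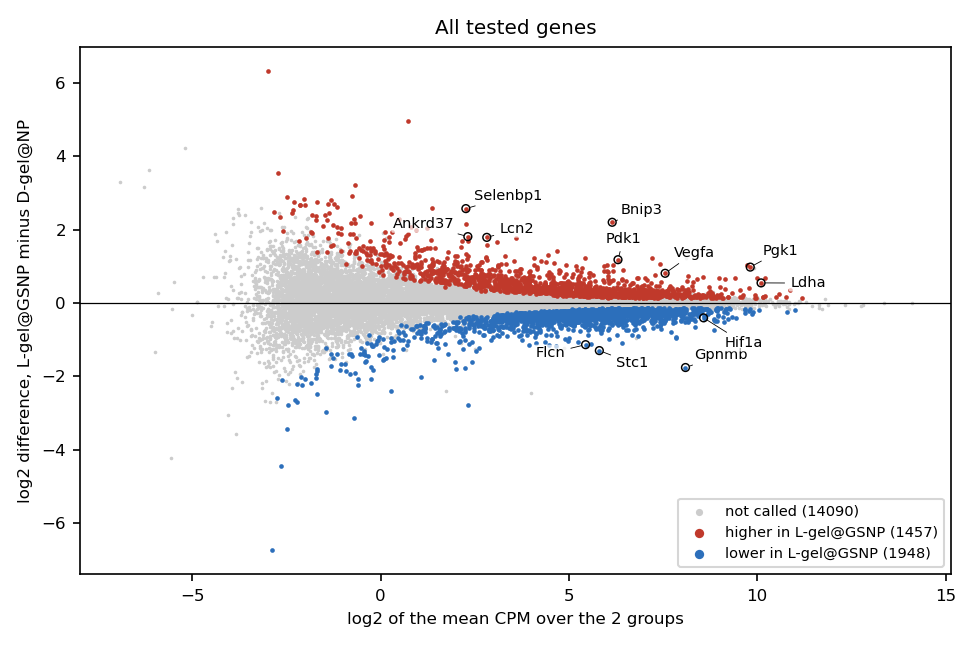
Log2 difference between L-gel@GSNP and D-gel@NP (vertical axis) against the log2 of the mean CPM over both groups (horizontal axis), 1 point per tested gene with a count in either group. Red points are the 1457 genes higher and blue points the 1948 genes lower in L-gel@GSNP; among the named genes Bnip3 lies at 2.20 and Gpnmb at -1.76.

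The genes with the largest rises had varied functions. In bulk RNA, fewer cells of a type and less RNA per cell cannot be told apart, here and below. Selenbp1, a selenium-binding protein, had 8.80, 5.50 and 10.2 CPM in L-gel@GSNP 1, 2 and 3 and 2.03, 1.37 and 0.950 CPM in D-gel@NP 1, 2 and 3. The lowest L-gel@GSNP library was thus above the highest D-gel@NP library, and the log2 difference was 2.58 (SE 0.29, adjusted p = 1.93e-06, edgeR). Lcn2, lipocalin 2, which binds iron-carrying siderophores, had 12.2, 9.87 and 10.7 CPM against 3.46, 2.71 and 3.35 CPM. It rose by 1.79 on the log2 scale (SE 0.23), with tight groups on both sides. Npnt, the matrix protein nephronectin, had 11.9, 13.3 and 13.9 CPM against 3.82, 4.16 and 4.38 CPM, a log2 difference of 1.65. Igf2r, the receptor that carries phosphomannose-tagged enzymes to lysosomes, had 31.6, 29.1 and 32.7 CPM against 12.7, 13.4 and 11.4 CPM and rose by 1.32 (SE 0.095, adjusted p = 4.94e-09, edgeR). Lama3, a laminin chain, rose by 1.43, Itga11, a collagen-binding integrin chain, by 1.70, Angptl2, a secreted angiopoietin-like protein, by 1.70, and Tpm2, a tropomyosin, by 1.30. In each of these 4 genes the libraries of the 2 groups did not overlap.

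Genes of the hypoxia response were higher in L-gel@GSNP. Of the 20 tested members of that list, 15 rose, 1 fell and 4 did not pass the test, and the list's median log2 difference was 0.77, beside -0.006 over all tested genes. Bnip3, a mitochondrial receptor for mitophagy, had 119.6, 74.6 and 154.4 CPM in L-gel@GSNP 1, 2 and 3 and 31.7, 19.1 and 26.3 CPM in D-gel@NP 1, 2 and 3. Every L-gel@GSNP library was more than 2-fold above the highest D-gel@NP library, and the gene rose by 2.20 on the log2 scale, or 4.61-fold (SE 0.22, adjusted p = 3.74e-07, edgeR). Pdk1, a kinase that inhibits pyruvate dehydrogenase, had 116.0, 94.2 and 117.7 CPM against 55.5, 42.1 and 47.9 CPM. Its log2 difference was 1.18 (SE 0.08, adjusted p = 3.98e-09, edgeR), and the groups stood well apart. Ero1l, an oxidase that makes disulphide bonds in the endoplasmic reticulum, had 206.5, 147.6 and 271.1 CPM against 107.5, 73.1 and 87.5 CPM and rose by 1.23. Vegfa, the main growth factor for blood vessels, had 225.5, 178.4 and 313.0 CPM against 153.3, 128.6 and 128.1 CPM and rose by 0.81 (SE 0.14, adjusted p = 0.000234, edgeR). Here L-gel@GSNP 2 came closest to D-gel@NP 1, without overlap.

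Several members shared an order of libraries. In Bnip3, Pdk1, Ankrd37, Ero1l and Vegfa, L-gel@GSNP 3, the deepest library, was the highest and L-gel@GSNP 2 the lowest of its group. Both prolyl hydroxylases on the list, which are themselves raised by HIF1A, were higher: Egln3 had 227.2, 171.4 and 294.9 CPM against 125.3, 104.3 and 103.6 CPM (log2 difference 1.06), and Egln1 rose by 0.90. The collagen prolyl hydroxylases P4ha1 and P4ha2 rose by 0.57 and 1.03, and Slc2a1, the glucose transporter GLUT1, rose by 0.68. Ankrd37, an ankyrin-repeat protein known as a HIF1A target, was low, with 7.16, 3.97 and 12.03 CPM against 2.38, 1.72 and 2.60 CPM, and rose by 1.81 (SE 0.34). The mRNA of Hif1a itself went the other way, with 323.2, 315.7 and 346.9 CPM against 415.4, 437.0 and 450.3 CPM, a fall of 0.40 on the log2 scale (SE 0.05, adjusted p = 3.58e-06, edgeR). Of the members that did not pass the test, Ddit4, a brake on mTOR signalling, had a log2 difference of -0.04 (SE 0.09), and Plin2, the lipid droplet coat protein, had -0.08 (SE 0.05). The list held 15 rises in each of the 19 alternative analyses, among them the fit without L-gel@GSNP 3 and that of libraries thinned to the depth of the shallowest.

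**Figure D2:**
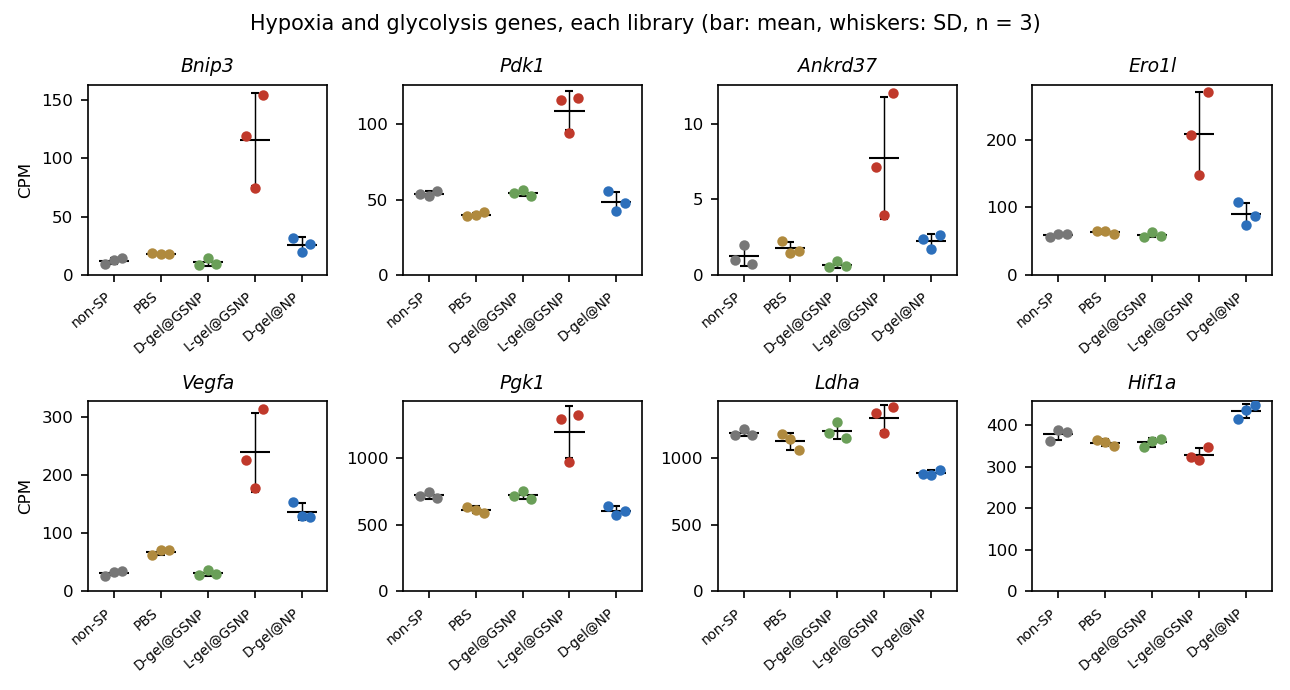
CPM of 8 hypoxia and glycolysis genes in all 15 libraries, 1 panel per gene, points for the libraries of each group and bars and whiskers for the mean and SD of 3. Bnip3 reached 154.4 CPM in L-gel@GSNP 3 and at most 31.7 CPM in D-gel@NP; Hif1a is the only panel with D-gel@NP above L-gel@GSNP.

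The levels of the other groups place these differences, without a test here. Bnip3 averaged 12.02 CPM in non-SP, 17.9 in PBS and 10.6 in D-gel@GSNP, each below the lowest D-gel@NP library. Vegfa averaged 31.3, 67.6 and 30.9 CPM in non-SP, PBS and D-gel@GSNP, so both gels compared here were above those groups. Pdk1 averaged 53.9, 39.98 and 54.5 CPM there, so D-gel@NP, at 42.1 to 55.5 CPM, lay near them and L-gel@GSNP above.

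Glycolytic enzymes rose in the same libraries. Of 20 tested members, 14 rose, 1 fell and 5 did not pass the test, with a median log2 difference of 0.475. The called enzymes covered most steps from hexokinase to lactate: Hk1 rose by 0.31, Gpi1 by 0.65, the phosphofructokinase genes Pfkl, Pfkp and Pfkm by 0.76, 0.71 and 0.39, Aldoa and Tpi1 by 0.69 each, Pgam1 by 0.40, Eno1 by 0.19 and Pkm by 0.35. Pgk1, an enzyme of the ATP-yielding steps, had 1290, 972.7 and 1322 CPM in L-gel@GSNP 1, 2 and 3 and 643.2, 572.0 and 600.6 CPM in D-gel@NP 1, 2 and 3. Its log2 difference was 0.98 (SE 0.08, adjusted p = 2.31e-08, edgeR), and again L-gel@GSNP 2 was the lowest of its group. Ldha, the lactate-forming dehydrogenase, had 1339, 1192 and 1385 CPM against 881.4, 877.9 and 914.0 CPM and rose by 0.55 (SE 0.055). Aldoc, the aldolase of brain, had 11.1, 8.04 and 12.9 CPM against 3.34, 3.29 and 3.98 CPM and rose by 1.59. The member that fell was Slc16a1, the lactate and pyruvate carrier MCT1, at -0.43, and Hk2, the inducible hexokinase, had a log2 difference of -0.02 (SE 0.07).

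Some glycolytic genes have near-identical copies elsewhere in the genome, and how reads that match several places were counted is not given in the sources used here. Gapdh had 440.7, 415.9 and 298.8 CPM against 44.4, 86.3 and 355.9 CPM, with D-gel@NP 3 far above the other D-gel@NP libraries, and did not pass the test (adjusted p = 0.15, edgeR). Pgk1-rs7, a copy of Pgk1, had 9.51, 6.47 and 9.88 CPM against 4.53, 2.91 and 4.65 CPM and rose by 1.12, so reads of the 2 loci may be split. Values of genes with such copies are uncertain to that extent.

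Promoters of the hypoxia and glycolysis genes were searched for ACGTG, the core that HIF1 binds, on both strands. The promoters are RefSeq's, from 250 bases before to 50 after a gene's start, in the build GRCm38.p6. Of the hypoxia list's 20 tested genes, 16 had promoters in the table, and 15 of their 25 promoters (60%) held the letters, as did 16 of 32 (50%) of the glycolysis list, beside 19.6% of all 32851 promoters. Among the called members alone the shares were 56.5% and 48.1%, not above those of all tested members. The lists were drawn from known hypoxia and glycolysis genes. Their excess over all promoters thus describes the choice of genes and not these libraries. The following stretches of 120 bases come from 4 genes that rose, chosen because they hold the letters, with ACGTG or its reverse complement in capitals. Bnip3 lies at chr7:138909553-138909672 on the minus strand, Ankrd37 at chr8:45999972-46000091 on the minus strand, Ldha at chr7:46845659-46845778 on the plus strand and Pgk1 at chrX:106186901-106187020 on the plus strand.
Bnip3: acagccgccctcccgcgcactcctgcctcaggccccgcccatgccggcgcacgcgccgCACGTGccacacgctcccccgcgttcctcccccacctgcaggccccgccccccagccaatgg
Ankrd37: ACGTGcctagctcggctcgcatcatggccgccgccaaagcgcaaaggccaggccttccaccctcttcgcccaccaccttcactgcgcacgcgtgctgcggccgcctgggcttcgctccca
Ldha: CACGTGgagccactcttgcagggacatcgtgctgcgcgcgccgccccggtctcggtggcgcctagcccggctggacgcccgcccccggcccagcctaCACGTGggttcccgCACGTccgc
Pgk1: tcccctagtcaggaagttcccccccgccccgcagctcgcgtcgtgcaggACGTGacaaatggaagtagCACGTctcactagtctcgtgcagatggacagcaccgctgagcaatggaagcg
The run CACGTG in Bnip3 and Ldha counts as a match on each strand. A match describes these letters and is not a measured binding site. Pdk1 and Kdm3a of the hypoxia list, which rose, had no match in their promoters. Neither had Gpi1, Pfkl, Pfkp, Tpi1 and Eno1 of the glycolysis list, which also rose. Hif1a and Slc16a1, which fell, had 3 matches each, and Hk2, which was not called, had 2.

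Some matrix and adhesion genes were higher in L-gel@GSNP. Of 24 tested collagens and matrix genes, 10 rose, 1 fell and 13 did not pass the test, with a median log2 difference of 0.365. The share called was 45.8%, beside 19.5% of all tested genes. Col3a1, a fibrillar collagen chain, had 6.74, 6.80 and 7.11 CPM in L-gel@GSNP 1, 2 and 3 and 2.50, 3.09 and 3.32 CPM in D-gel@NP 1, 2 and 3, and rose by 1.19 (SE 0.21, adjusted p = 0.000288, edgeR). Loxl2, which crosslinks collagen, had 5.44, 4.597 and 5.42 CPM against 2.44, 2.81 and 3.28 CPM and rose by 0.83. Col1a1 had 1.78, 2.28 and 5.13 CPM against 1.43, 1.60 and 1.30 CPM. Its call (log2 difference 1.17, adjusted p = 0.0467, edgeR) rested on L-gel@GSNP 3 and held in 9 of 19 alternatives. It was lost without that library, without any 1 of the D-gel@NP libraries and with both libraries of extreme depth left out. DESeq2, the thinned libraries and every limma fit lost it as well. The member that fell was Spp1, osteopontin, with 406.4, 406.6 and 366.9 CPM against 513.4, 573.3 and 560.8 CPM, at -0.48. Of 17 tested YAP and TAZ targets 7 rose and 1 fell (47.1% called, beside 19.5% of all tested genes). Their median log2 difference was 0.174. Ccn2, a matricellular growth factor, had 143.9, 123.5 and 215.9 CPM against 105.1, 100.3 and 96.0 CPM and rose by 0.69, and Amotl2, a junction protein that restrains YAP, rose by 0.54. Without D-gel@NP 3 the YAP and TAZ list held 4 rises. Of 14 actin and SRF genes 5 rose and none fell, the rises including Cald1 at 0.23 and Cnn2 at 0.45. Their called share was 35.7%, beside 29% of genes with at least 10 CPM, and their median log2 difference was 0.079. Of 23 genes of integrins and focal adhesion 5 rose and 2 fell, a called share of 30.4% that is close to the same 29%. The integrin list held 2 rises when both libraries of extreme depth were left out. Markers of fibroblasts and pericytes, a list that also holds Col1a1 and Col3a1, had 2 rises and 1 fall among 7 and summed to 1318 to 1477 CPM in L-gel@GSNP and 1459 to 1515 CPM in D-gel@NP. The part of such cells in the matrix genes was not tested.

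Gpnmb had the lowest adjusted p of all tested genes and was lower in L-gel@GSNP. This membrane glycoprotein of lysosomes and melanosomes, known to follow the MITF and TFE family of factors, had 114.6, 129.0 and 130.6 CPM in L-gel@GSNP 1, 2 and 3 and 417.8, 455.8 and 392.2 CPM in D-gel@NP 1, 2 and 3. The groups stood far apart, and the gene fell by 1.76 on the log2 scale, or 3.38-fold (SE 0.06, adjusted p = 3.51e-14, edgeR). Flcn, folliculin, which restrains TFE3 and TFEB, had 27.0, 27.3 and 27.4 CPM against 56.1, 64.2 and 58.8 CPM and fell by 1.13 (SE 0.06, adjusted p = 2.05e-11, edgeR). Stc1, the secreted hormone stanniocalcin, had 34.99, 30.8 and 31.9 CPM against 67.4, 87.0 and 83.8 CPM and fell by 1.30. In all 3 genes the L-gel@GSNP libraries were close together and below the D-gel@NP libraries. Dpp7, a lysosomal dipeptidase, fell by 1.13, Kif5c, a kinesin motor, by 1.12, and Slc1a2, a glutamate transporter, by 1.15. Il1rn, which blocks the interleukin 1 receptor, had 3.51, 3.27 and 3.08 CPM against 9.54, 8.44 and 6.75 CPM and fell by 1.32. Krtap5-5 fell by 1.80, the largest fall among the genes named, but it belongs to a family of similar genes and its reads may be shared.

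Lysosomal genes were lower as a group. Of 24 tested members 15 fell and none rose, with a median log2 difference of -0.31. Lamp1, an abundant membrane protein of lysosomes, had 450.5, 460.0 and 458.4 CPM against 652.6, 653.8 and 647.2 CPM and fell by 0.51 (SE 0.04, adjusted p = 3.86e-08, edgeR). Hexa, a subunit of the enzyme that breaks down gangliosides, had 37.4, 39.4 and 34.9 CPM against 59.3, 57.1 and 48.4 CPM and fell by 0.56. The libraries of each group lay close together for Lamp1, and those of D-gel@NP were more spread for Hexa, with no overlap in either. Neu1 fell by 0.60, Grn, progranulin, by 0.50, Atp6v1h, a subunit of the proton pump, by 0.38, and Ctsd, a protease, by 0.30. The protease Ctsb had a log2 difference of -0.11 (SE 0.05, adjusted p = 0.084, edgeR), and Tfeb itself had -0.04 (SE 0.08). Sqstm1, the autophagy adaptor p62, had 593.5, 594.2 and 597.7 CPM against 803.7, 767.0 and 813.2 CPM and fell by 0.42, while Optn, another adaptor, rose by 0.34. The alternatives left 15 to 17 falls in the lysosome list and no rise.

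**Figure D3:**
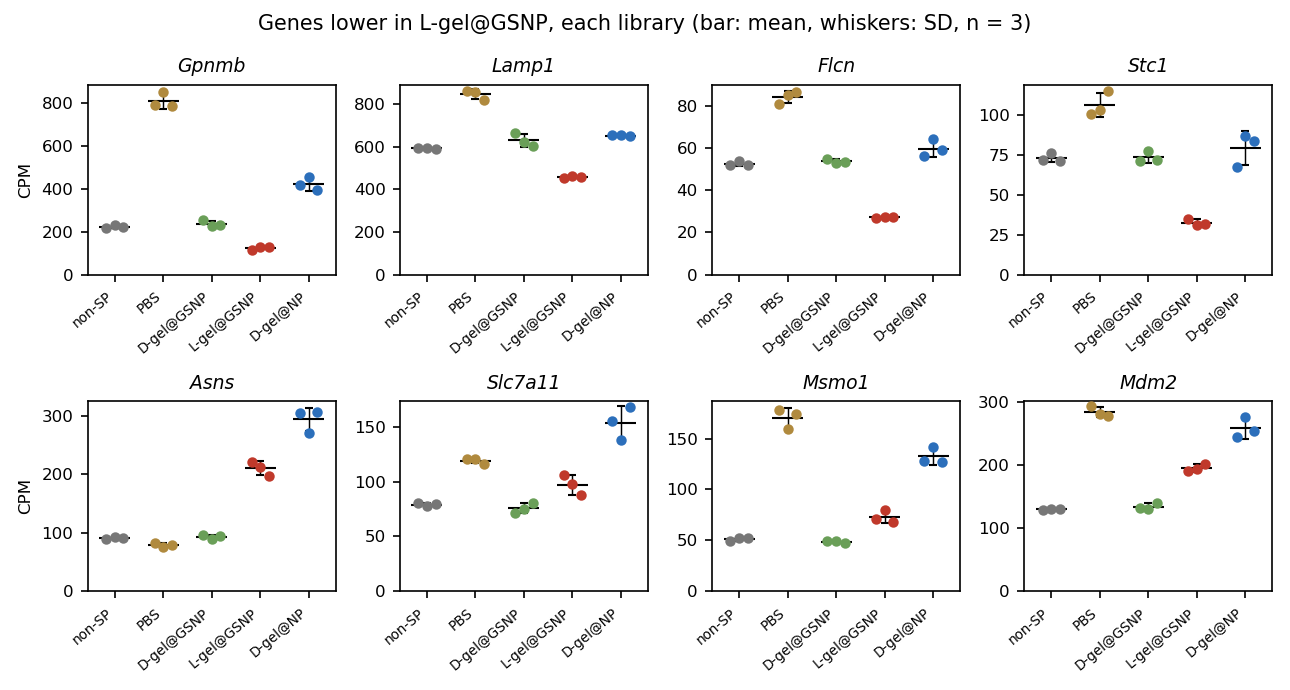
CPM of 8 genes lower in L-gel@GSNP than in D-gel@NP, in all 15 libraries, drawn as points with the mean and SD of 3. Lamp1, Flcn and Gpnmb had their lowest values of the 5 groups in L-gel@GSNP; Asns and Slc7a11 were highest in D-gel@NP.

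The place of these genes among the 5 groups differed. Gpnmb averaged 223 CPM in non-SP, 808 in PBS and 236 in D-gel@GSNP, so that D-gel@NP lay between and L-gel@GSNP below all of them. Flcn averaged 52.5, 84.1 and 53.6 CPM in the same groups, again above L-gel@GSNP. Summed over the lysosome list, L-gel@GSNP had 5066 to 5168 CPM and D-gel@NP 6410 to 6550 CPM, beside 4619 to 4692 in non-SP and 7697 to 8261 in PBS.

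Cholesterol synthesis had the largest share of falls. Of 25 tested genes 21 fell and none rose, and the median log2 difference was -0.42. Msmo1, a sterol oxidase of the later steps, had 71.0, 79.9 and 68.1 CPM against 128.4, 141.7 and 127.2 CPM and fell by 0.86 (SE 0.06, adjusted p = 3.98e-09, edgeR). Cyp51, the lanosterol demethylase, had 96.6, 107.1 and 86.4 CPM against 130.8, 183.2 and 154.3 CPM and fell by 0.70. No library of Msmo1 or Cyp51 crossed into the range of the other group. Idi1 and the sterol sensor Insig1 fell by 0.65 each, and Fdps by 0.52. Hmgcs1, an enzyme of the early steps, had a log2 difference of -0.13 (SE 0.06, adjusted p = 0.19, edgeR), and the mRNA of Srebf2, which encodes SREBP2, had -0.00 (SE 0.09). In fatty acid synthesis and desaturation 11 of 19 fell and 1 rose, with a median of -0.23. Fasn, fatty acid synthase, had 190.6, 237.5 and 245.4 CPM against 307.6, 355.9 and 290.9 CPM and fell by 0.50, and Scd1, a desaturase, fell by 0.49. The gene that rose was Dgat1, which makes triglycerides, at 0.39. Across the alternatives, the cholesterol list held 16 to 22 falls and no rise.

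Genes of the integrated stress response were lower in L-gel@GSNP. Of 24 tested members 16 fell, none rose and 8 did not pass the test, with a median log2 difference of -0.37. Slc7a11, the cystine importer, had 106.4, 97.7 and 88.0 CPM in L-gel@GSNP 1, 2 and 3 and 155.5, 138.0 and 168.1 CPM in D-gel@NP 1, 2 and 3, and fell by 0.66 (SE 0.07, adjusted p = 8.38e-07, edgeR). Asns, asparagine synthetase, had 221.5, 213.1 and 197.3 CPM against 304.8, 271.5 and 306.0 CPM and fell by 0.48 (SE 0.06). Ddit3, the stress factor CHOP, had 25.3, 22.2 and 28.3 CPM against 40.4, 31.9 and 34.2 CPM and also fell by 0.48. D-gel@NP 2 was the lowest of its group in all 3 genes and still above each L-gel@GSNP library. Sesn2, a sensor that restrains mTOR, fell by 0.61, Gdf15, a secreted stress hormone, by 0.56, and Atf4 by 0.27. Trib3, a pseudokinase target of ATF4, had 68.1, 62.0 and 59.5 CPM against 89.2, 57.6 and 75.1 CPM, overlapped between the groups and did not pass (adjusted p = 0.31, edgeR). Atf3 fell by 0.39 and Slc7a5, a leucine importer, by 0.37, and both calls were lost in limma on log2(FPKM + 1) without a filter. Both gels compared here were above the other groups in the following members: Asns averaged 90.7 CPM in non-SP, 78.5 in PBS and 93.1 in D-gel@GSNP, and Trib3 averaged 4.13, 8.33 and 3.28 CPM.

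Related metabolic lists followed. In serine and one-carbon metabolism 9 of 17 fell and none rose, with a median of -0.46. Across the alternatives this list held 7 to 9 falls, and its median ran from -0.463 to -0.178. Phgdh, the first enzyme of serine synthesis, had 409.3, 417.4 and 344.7 CPM against 536.6, 508.4 and 565.3 CPM and fell by 0.46 (SE 0.06), and the mitochondrial folate enzymes Shmt2 and Mthfd2 fell by 0.54 and 0.56. Psat1, the enzyme after Phgdh, had a log2 difference of -0.07 (SE 0.05). Of 20 cytosolic aminoacyl-tRNA synthetases, which charge tRNAs with amino acids, 11 fell and none rose (median -0.25), with Cars at -0.50 and Nars at -0.43. Amino acid transporters held 8 falls and 1 rise among 15. The rise was Slc38a4, a carrier of neutral amino acids, with 750.0, 769.2 and 553.5 CPM against 427.8, 434.0 and 453.0 CPM, a log2 difference of 0.66. The lists share members: Phgdh, Shmt2 and Mthfd2 also stand on the list of the integrated stress response, as do the transporters Slc7a11 and Slc7a5, so these counts are not separate.

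The stress response promoters were searched for TGATGNAA, the element that ATF4 binds with C/EBP proteins, on both strands. It stood in 7 of 25 promoters (28%) of the 21 tested genes that matched the table, and in 4 of 16 (25%) for the called genes, beside 3.97% of all promoters. For the tested aminoacyl-tRNA synthetases it stood in 5 of 12 promoters (41.7%), and for serine and one-carbon metabolism in 1 of 15 (6.67%). The stress response list was drawn from known genes of that response. Its excess over all promoters thus describes the choice of genes and not these libraries. Asns and Slc7a11 are shown as genes that fell, chosen because they hold the element close to the gene's start, in capitals on either strand. Asns is at chr6:7693170-7693289 and Slc7a11 at chr3:50443607-50443726, both on the minus strand of GRCm38.p6.
Asns: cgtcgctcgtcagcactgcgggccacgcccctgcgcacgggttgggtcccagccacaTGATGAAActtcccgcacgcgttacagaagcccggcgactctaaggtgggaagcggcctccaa
Slc7a11: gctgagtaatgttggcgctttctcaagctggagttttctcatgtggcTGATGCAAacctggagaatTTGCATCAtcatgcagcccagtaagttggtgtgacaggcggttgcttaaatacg
Slc7a11 holds the element on each strand and Asns on the strand shown. Chac1, Trib3 and Vldlr, which did not pass the test, hold it as well, while Sesn2, Mthfd2, Gdf15 and Shmt2, which fell by more than Asns, have no match. For cholesterol synthesis the sterol element TCACNCCAC was found in 1 of 20 promoters of tested genes (5%), beside 1.24% of all promoters. That promoter was of Hmgcs1, which was not called, and among the called members 0 of 16 promoters held the element.

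Targets of p53 were lower, with 15 falls and 2 rises among 26 tested members and a median log2 difference of -0.25. Mdm2, the ligase that holds p53 down, had 190.4, 193.9 and 202.5 CPM against 244.3, 275.9 and 254.4 CPM and fell by 0.40 (SE 0.05, adjusted p = 5.39e-06, edgeR). Ccng1, an atypical cyclin, had 577.1, 567.1 and 526.2 CPM against 673.3, 785.0 and 733.0 CPM and fell by 0.39. Both genes kept the groups apart. Cdkn1a, the cell cycle inhibitor p21, had 291.9, 284.7 and 328.8 CPM against 353.2, 364.7 and 320.3 CPM, overlapped between the groups, and fell by 0.20 (adjusted p = 0.0139, edgeR). That call was lost without L-gel@GSNP 1, without L-gel@GSNP 2, without D-gel@NP 2, in the fit of the 6 libraries alone with or without a replicate block, and in limma on log2(FPKM + 1) without a filter. The rises were Sesn1 at 0.37 and Plk2 at 0.18, the second of which was lost when both libraries of extreme depth were left out. Sesn2 and Gdf15 stand on this list and on that of the integrated stress response.

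**Figure D4:**
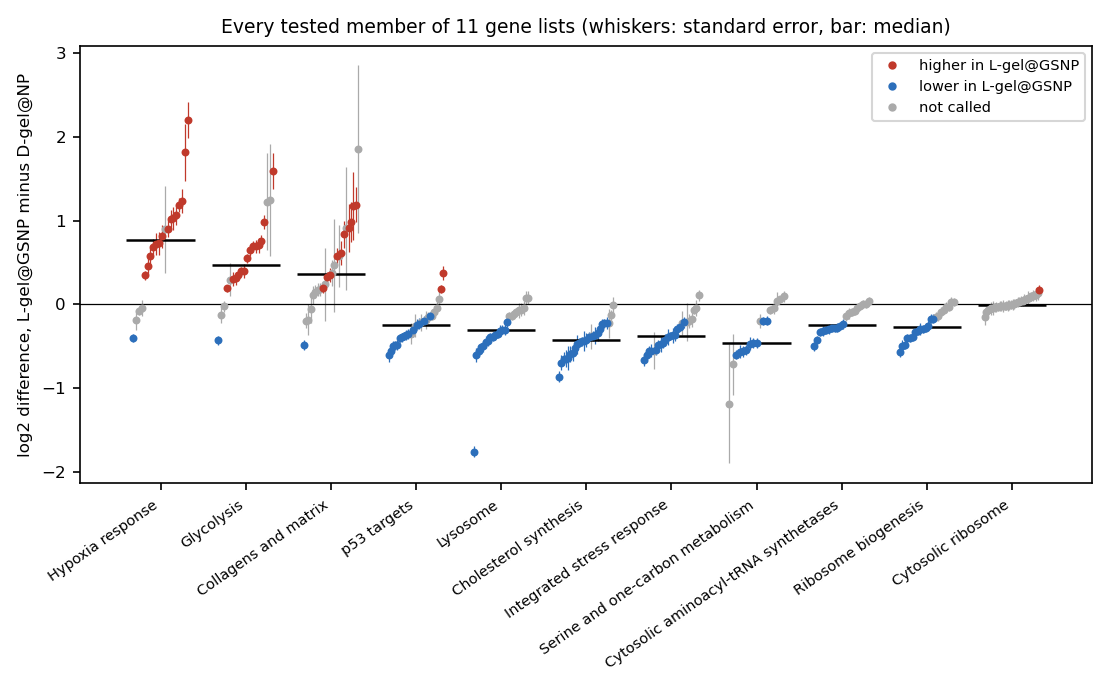
Log2 difference of every tested member of 11 gene lists, with the standard error as whiskers and the median as a black bar. Hypoxia and glycolysis members lie mostly above 0 (medians 0.77 and 0.475), cholesterol, stress response and lysosome members mostly below, and the cytosolic ribosome at -0.003.

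Genes of DNA replication and ribosome biogenesis were lower more often than higher. Of 32 DNA replication genes 13 fell and 1 rose, with a median of -0.15. Cdc6, which loads the replicative helicase, had 55.2, 54.5 and 50.2 CPM against 70.3, 78.0 and 70.2 CPM and fell by 0.46, and Mcm3 and Mcm5, subunits of that helicase, fell by 0.31 and 0.30. The replication falls numbered 7 without L-gel@GSNP 3, D-gel@NP 2 or D-gel@NP 3, and 5 with the 6 libraries fitted alone and a replicate block. Among 30 genes of G2 and mitosis 4 fell and 2 rose, and the median was -0.03: the share called, 20%, was near the 19.5% of all tested genes. Without D-gel@NP 3 the falls in mitosis were 2. DNA repair held 8 falls and 2 rises among 25, but 1 fall without L-gel@GSNP 3, 4 without D-gel@NP 2, 5 without D-gel@NP 3 and 1 in the fit of the 6 libraries alone. Ribosome biogenesis had 14 falls and no rise among 22 (median -0.27), with Wdr12 at -0.57 and Nop2, a ribosomal RNA methyltransferase, at -0.40. The structural proteins of the cytosolic ribosome showed 1 rise and no fall among 34, with a median of -0.003. None of the 13 mitochondrially encoded proteins was called by edgeR or DESeq2, and 0 had an unadjusted p under 0.05 in edgeR, with log2 differences from -0.36 to 0.45. Of 31 nuclear-encoded respiratory chain genes 8 fell, among them Cycs, cytochrome c, at -0.38, and the list's median was -0.09. The share called, 25.8%, lay between the 19.5% of all tested genes and the 29% of genes with at least 10 CPM. In the fit of the 6 libraries alone 5 respiratory chain genes fell.

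Protein-folding genes were lower more often than higher in both lists. In the endoplasmic reticulum 11 of 20 chaperones and genes of the unfolded protein response fell and none rose (median -0.215). Dnajb9, a co-chaperone, had 41.5, 41.8 and 45.6 CPM against 60.3, 65.0 and 61.7 CPM and fell by 0.54 (SE 0.07). Hspa5, the main chaperone BiP, had a log2 difference of 0.03, and Xbp1 had -0.15, neither called. On the heat shock list 9 of 20 genes fell and 1 rose. The falls include the mitochondrial chaperone genes Hspd1, at -0.29, and Hspe1, at -0.46, so the list is not only cytosolic. Hsph1, a nucleotide exchange factor for HSP70, had 128.2, 123.5 and 141.2 CPM against 205.5, 257.5 and 183.3 CPM and fell by 0.72 (SE 0.09). The rise was Hspb8, a small heat shock protein, at 0.23.

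**Figure D5:**
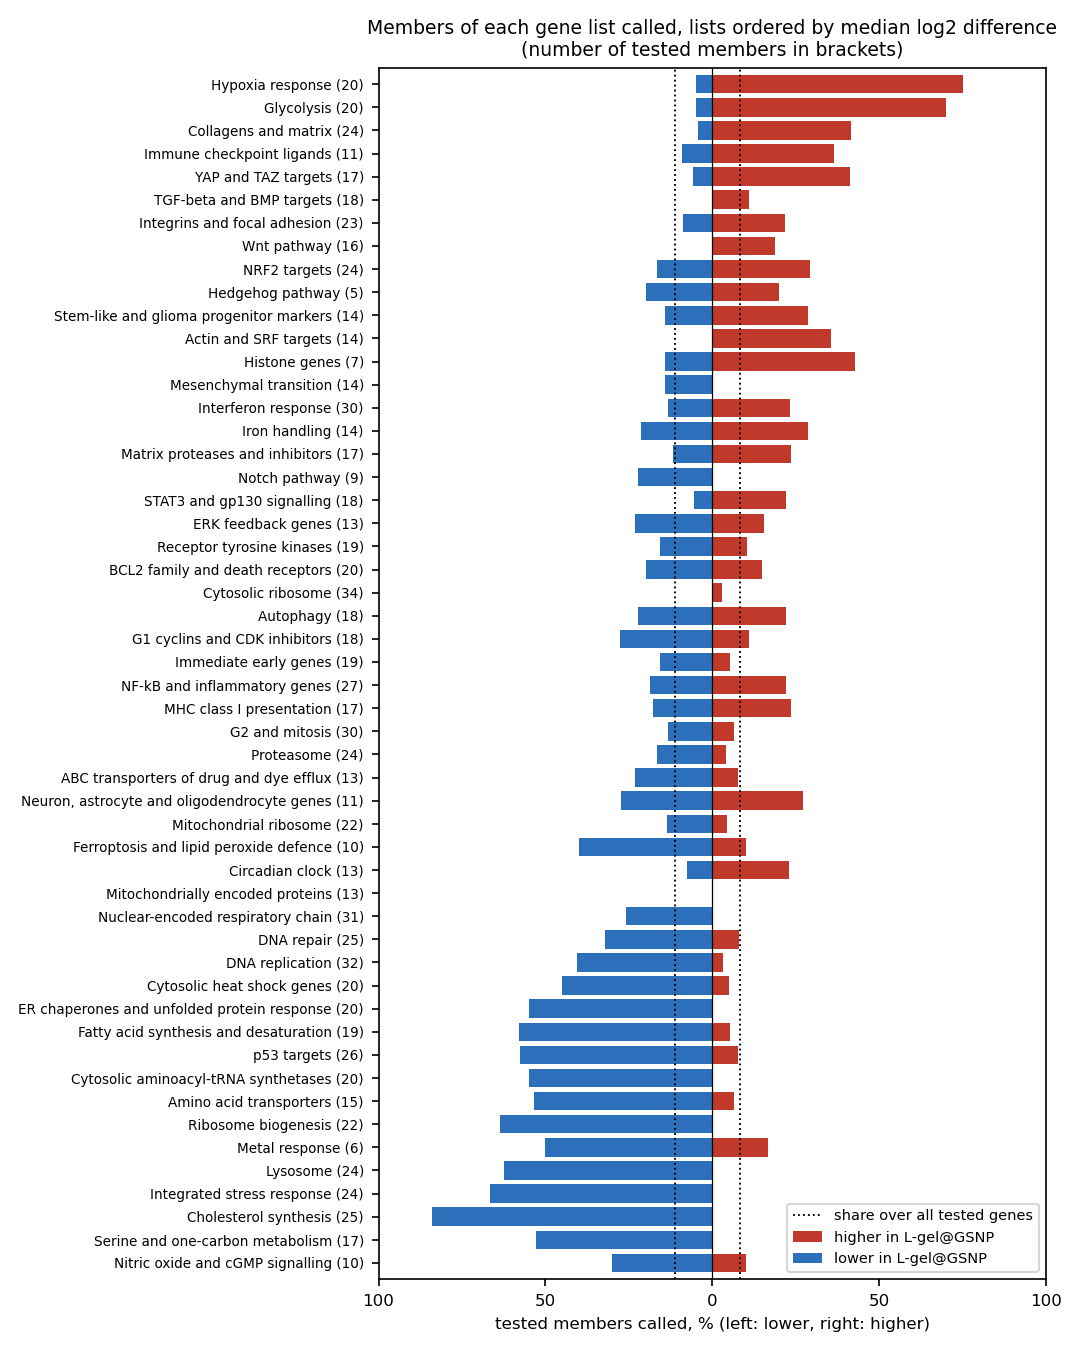
Share of tested members called lower (blue, to the left) and higher (red, to the right) in L-gel@GSNP for 52 gene lists, ordered by median log2 difference, with dotted lines at the shares over all tested genes (11.1% lower and 8.33% higher). Hypoxia response and glycolysis stand at the top, and cholesterol synthesis has the longest bar to the left, 21 of 25.

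Across the 52 pathway lists, 46 had a larger share of called members than the 19.5% of all tested genes. Since 29% of genes with at least 10 CPM were called, a share between those figures is close to the background. At least 50% of the tested members fell in 11 lists, and at least 50% rose in 2, hypoxia response and glycolysis.

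Inflammatory and immune lists had calls in both directions. Among the 27 tested genes of NF-kB and inflammation there were 6 rises and 5 falls (40.7% called, beside 19.5% of all tested genes). Nfkbia, the inhibitor that NF-kB itself raises, had 154.3, 140.4 and 134.1 CPM against 130.2, 103.4 and 114.5 CPM and rose by 0.30, and Tnfaip3, another such inhibitor, rose by 0.48. Ccl7, a monocyte-attracting chemokine, was low at 1.25, 0.811 and 0.991 CPM against 2.38, 2.23 and 2.08 CPM and fell by 1.13. Among 30 interferon response genes 7 rose and 4 fell (36.7% called). Oasl2 rose by 0.75 and Mx1 fell by 0.73, and there were 3 rises without L-gel@GSNP 1 and 4 without D-gel@NP 3. In the STAT3 and gp130 list 4 of 18 rose and 1 fell, with a median log2 difference of 0.031. Its called share of 27.8% is close to the 29% of genes with at least 10 CPM. Il6st, which encodes gp130, had 181.5, 184.5 and 177.7 CPM against 141.8, 151.3 and 135.6 CPM and rose by 0.34 (SE 0.06), Osmr, the oncostatin M receptor, rose by 0.67, and Lifr, its partner for LIF, fell by 0.32. Markers of macrophages and microglia, 1 of 10 of which was called, summed to 59.7 to 63.2 CPM in L-gel@GSNP and 57.4 to 66.7 CPM in D-gel@NP, so their sums overlapped. C1qa and C1qb, further markers of these cells, were not analysed here. The sums of T and NK cell markers were at most 2.92 CPM, of neutrophil markers at most 7.44 CPM and of erythroid markers at most 0.699 CPM in either group. Endothelial markers summed to 9.65 to 12.1 CPM in L-gel@GSNP and 12.7 to 16.2 CPM in D-gel@NP, with 1 of 4 called. The part of other cells in the immune lists was not tested.

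Genes used to mark stem-like cells and to pump out dyes had calls in both directions. Of 14 tested stem-like and glioma progenitor markers 4 rose and 2 fell (42.9% called, beside 19.5% of all tested genes), and the rises were 2 without L-gel@GSNP 1, D-gel@NP 1 or D-gel@NP 2. Sox9, a neural progenitor factor, had 51.4, 55.2 and 56.8 CPM against 72.7, 84.8 and 72.3 CPM and fell by 0.49 (SE 0.07, adjusted p = 1.55e-05, edgeR). Mycn, a growth-promoting transcription factor, was low at 4.33, 3.27 and 4.14 CPM against 1.55, 2.51 and 2.38 CPM and rose by 0.82. Msi2, an RNA-binding protein of progenitors, rose by 0.31, a call lost when both libraries of extreme depth were left out. Cd44, a hyaluronan receptor, had 918.9, 900.0 and 853.2 CPM against 948.4, 896.8 and 949.6 CPM and a log2 difference of -0.06 (SE 0.04, adjusted p = 0.35, edgeR). Its groups overlapped, as did those of Myc, at -0.13 (adjusted p = 0.18), and of Nes, at 0.37 (adjusted p = 0.30, edgeR). Of the transporters linked to the side population, Abcg2 had 49.2, 50.2 and 51.5 CPM against 55.2, 49.4 and 53.2 CPM (log2 difference -0.06, SE 0.06), and Abcb1a had a log2 difference of 0.08 (SE 0.08), neither called. Of the 13 tested ABC transporters 1 rose and 3 fell (30.8% called). Abcc2, an exporter of conjugated drugs, had 155.5, 152.3 and 153.0 CPM against 256.4, 277.7 and 267.9 CPM and fell by 0.80 (SE 0.05, adjusted p = 1.24e-10, edgeR), Abcg1 and Abcc4 fell by 0.74 and 0.26, and Abcc1 rose by 0.62. Of 19 tested receptor kinases 2 rose and 3 fell, with a median log2 difference of 0.017. The share called, 26.3%, lay between the 19.5% of all tested genes and the 29% of genes with at least 10 CPM. Egfr fell by 0.70, Met by 0.59 and Pdgfra by 0.72, the last with overlapping groups.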

How the data were processed

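The libraries are bulk RNA sequencing of TRIzol-extracted RNA. Per the submitters' processing notes, the authors used fastp 0.22.0, HISAT2 2.1.0, featureCounts and DESeq2 with the mouse genome GRCm39; annotation release, strand and multi-mapping settings are not given in the sources used here. The values used are raw read counts, whole numbers for each gene as deposited by the authors. The deposited FPKM values equal the count divided by gene length and library total for all 34259 genes (relative tolerance 1e-04). Symbols were matched by gene ID to GENCODE M21 (32434 matched, 1825 not), and promoters to RefSeq by symbol.

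Tests ran on the counts in edgeR 4.0.16 (R 4.3.3): filterByExpr by group, TMM factors and a quasi-likelihood fit with a mean per group on all 15 libraries, so that the groups share an estimate of spread (biological coefficient of variation 8.06%), with Benjamini-Hochberg adjustment over 17497 genes. The fit was tested on simulated data. CPM uses the same factors. A group's level is a mean over 3 libraries. The members and the 58 gene lists were chosen with earlier results of these data known.

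Genes were named by a rule: the 15 largest rises and falls of called genes, where the higher group reached 5 CPM, the groups did not overlap and the symbol was not provisional; in each list whose called share exceeded that of all genes, up to 5 of its members by smallest adjusted p; and a panel of Myc, Tubb3, Gfap, Olig2, Cd44, Nes, Abcb1a, Abcg2, Prom1 and Sox2. The text gives part of them (some are not reported here), and other list members were added after their values were seen. Alternatives were factors by RLE or upper quartile, all genes kept, a minimum of 1 CPM in 3 libraries, DESeq2 1.42.0, the 6 libraries alone, a replicate block, thinning to the shallowest library, mitochondrially encoded genes left out, limma 3.58.1 on log2 FPKM with a pseudocount of 1 (filtered or not) or 0.1, each library left out in turn, and both libraries of extreme depth left out.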

Additional observations from a re-analysis of the deposited data

How the results depend on the processing

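No gene called in the comparison was called in the opposite direction under any of the 19 alternatives, and 115 of the 125 called genes of the text examined this way were called in all of them. The fall count was 1298 with the 6 libraries fitted alone. With a replicate block added to that fit it was 1163, with 69 falls of at least 2-fold. Same-numbered libraries did not deviate together (correlations 0.035, -0.011 and 0.007), and pairs of unlike number gave -0.039 to 0.043. No pairing by number was thus seen, though these values cannot exclude a weak one. At least 2-fold, limma gave 16 rises and 10 falls with 1 added to FPKM, 15 and 10 with unfiltered genes, and 54 falls with 0.1 added; a pseudocount shrinks the folds of low genes by construction. Leaving out each library in turn gave 1083 to 1260 rises and 1511 to 1783 falls, and 128 to 202 rises and 86 to 114 falls of at least 2-fold. Rises were 42.8% of the calls and ran from 40.1% (both libraries of extreme depth left out, an alternative added after seeing the data) to 51.1% (upper-quartile factors, 1720 rises and 1645 falls). Depth limits low genes most: D-gel@NP 1 had 16626413 counts, and genes of few counts there carry wide errors.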

Other observations

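Iron and redox genes shifted in both directions. Of 14 tested iron genes 4 rose and 3 fell (50% called, beside 19.5% of all tested genes and 29% of genes with at least 10 CPM). Slc40a1, the iron exporter ferroportin, had 83.1, 85.9 and 80.4 CPM in L-gel@GSNP 1, 2 and 3 and 54.0, 52.5 and 58.1 CPM in D-gel@NP 1, 2 and 3, a log2 difference of 0.60 (SE 0.06). Tfrc, the importer of transferrin, fell by 0.28 and Fth1, a ferritin chain, by 0.16. Tmprss6, a protease of iron regulation, had 21.1 to 23.9 CPM in L-gel@GSNP and 9.73 to 12.3 CPM in D-gel@NP, and averaged 0.171, 0.365 and 0.125 CPM in non-SP, PBS and D-gel@GSNP. Of 24 NRF2 targets 7 rose and 4 fell (45.8% called). Gsta4, a glutathione transferase, rose by 0.71. The falls among NRF2 targets numbered 2 without L-gel@GSNP 1 or L-gel@GSNP 2 and 1 with the replicate block. Aifm2, which guards membranes against lipid peroxides, rose by 0.57.

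Among smaller groups, the 5 tested Hedgehog genes held 1 rise and 1 fall (40% called, beside 19.5% of all tested genes). The list's median log2 difference was 0.09. Its rise was Cdon, with a mean FPKM of 62.74 in L-gel@GSNP and 49.8 in D-gel@NP. Gli1, the Hedgehog output gene, had 1.67, 2.48 and 2.07 CPM against 3.94, 5.35 and 4.05 CPM and fell by 1.11. Of 9 tested Notch genes 2 fell and none rose, a called share of 22.2% that is near the 19.5% of all tested genes. These were Hes1 and Jag1, which fell by 0.75 and 0.46. In the ERK feedback list 2 of 13 rose and 3 fell (38.5% called). Spry1 rose by 0.63 and Dusp4 and Dusp6 fell by 0.38 and 0.34. In the nitric oxide and cGMP list 1 of 10 rose and 3 fell (40% called). The argininosuccinate genes Ass1 and Asl fell by 0.46 and 0.69. Nos2, at 0.969 to 1.31 CPM against 0.119 to 0.583 CPM, rose by 1.32. That call was lost when L-gel@GSNP 1 or 3 or D-gel@NP 1 or 3 was left out. Of 20 genes of the BCL2 family and death receptors 3 rose and 4 fell (35% called). Bmf, a BH3-only death gene, had 9.96, 9.53 and 12.6 CPM against 5.90, 5.55 and 5.75 CPM and rose by 0.91. Immune checkpoint ligands had 4 rises and 1 fall among 11 (45.5% called). Nt5e, which encodes CD73, had 2.77, 1.87 and 3.13 CPM against 0.715, 0.456 and 0.950 CPM and rose by 1.88. That call was lost when both libraries of extreme depth were left out. Histone genes had 3 rises and 1 fall among 7 (57.1% called). H1f0, a linker histone, had 361.7, 346.3 and 368.6 CPM against 239.1, 184.4 and 225.5 CPM and rose by 0.73.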
